A study of Homo sapiens with 4 samples.

Results

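The regions described here are m6A peaks that began and ended at the same base in control and FTO knockdown RWPE1 cells. They were chosen by their listed positions alone. Peaks of the control list and of the knockdown list were paired where they overlapped by 1 bp or more on either strand, pairs in which each peak had exactly 1 partner were kept, and a pair became a member when its start and its end were the same in both lists. This gave 1114 members among 1994 one-to-one pairs, or 55.9% of these pairs. The rule defined the members, and no expected share was worked out. The members were 11.04% of the 10087 peaks in the control list (95% Wilson interval 10.4% to 11.7%) and 10.8% of the 10323 peaks in the knockdown list (10.2% to 11.4%).

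RWPE1 is a line of human prostate epithelium that was immortalized with a papillomavirus. The cells were infected with lentivirus that carried either 1 shRNA target sequence for FTO (shFTO) or the vector alone (shCtrl), and both were kept under puromycin as stable lines. Each condition had 1 library of RNA pulled down with an antibody against m6A (IP) and 1 library of total fragmented RNA (input), so 4 libraries gave the 2 peak lists, and no difference between shFTO and shCtrl cells has a replicate check. Intervals on shares cover counting error over peaks only, and the number of reads behind a peak is unknown.

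m6A is the methyl mark that the METTL3 and METTL14 complex places on adenosines within a short consensus motif of messenger RNA, and FTO is one of the enzymes that remove it. In mammalian cells the mark is known to be dense in long internal exons and around stop codons, and sparse in short internal exons, where proteins left at splice junctions keep the writer complex away. MeRIP-seq sees the mark through RNA fragments, so a peak is a stretch where pulled-down fragments outnumber input fragments, and its edges say where the stretch was called to begin and end. The base that carries the mark lies somewhere inside.

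No pair fell short of membership by a shift of the whole peak, because the number of pairs with the same width but other edges was 0. Of the 880 one-to-one pairs with other edges, 654 were wider in shFTO cells and 226 were wider in shCtrl cells. Just outside the rule lay 17 pairs in which the larger difference at an edge was 1 bp. Their median width was 264 bp for shCtrl and 265 bp for shFTO peaks, against 187.5 bp for the members. By this larger difference, 66 pairs were 1 to 5 bp apart, 51 were 6 to 10 bp, 99 were 11 to 25 bp, 230 were 26 to 100 bp and 434 were over 100 bp apart. An exact match was thus far more frequent than a near match, and the pairs with other edges mostly differed by more than 25 bp.

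Strand was not part of the rule, and it was the same in both lists for all 1114 members. The plus strand held 556 of them. Among the other pairs, 3 of the 654 that were wider in shFTO cells and 0 of the 226 that were wider in shCtrl cells were listed on opposite strands. Read along the strand, 443 of the 1994 pairs shared the upstream (5′) edge alone (22.2%, 95% Wilson interval 20.4% to 24.1%), 228 shared the downstream (3′) edge alone (11.4%, 10.1% to 12.9%), and 209 shared neither (10.5%, 9.21% to 11.9%). Where a pair kept only 1 edge, it was thus more often the upstream one.

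The members were short beside the other one-to-one pairs, whose median widths ran from 466.5 to 785 bp across classes and lists. Their own width ranged from 19 to 4414 bp, with quartiles of 129 and 371.75 bp around the median of 187.5 bp. Peaks of 1 list alone were nearer to the members. Their median was 203 bp in the shCtrl list (quartiles 115 and 422 bp) and 232 bp in the shFTO list (135 and 587.25 bp). Widths of 101 to 200 bp made up 42.3% of the members (471 of 1114, 95% Wilson interval 39.4% to 45.2%). The corresponding share was 29.6% (28.6% to 30.6%) among the 8054 peaks found in the shCtrl list alone and 30.9% (29.9% to 31.9%) among the 8304 found in the shFTO list alone. In the pairs that were wider in shFTO cells it was 8.10% by the shCtrl width (6.25% to 10.4%) and 10.4% by the shFTO width (8.29% to 13.0%). At the other end, 68 members (6.10%, 4.84% to 7.67%) were wider than 1000 bp. These comparisons are descriptions, and the cause of the differences in width was not tested.

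**Figure D1:**
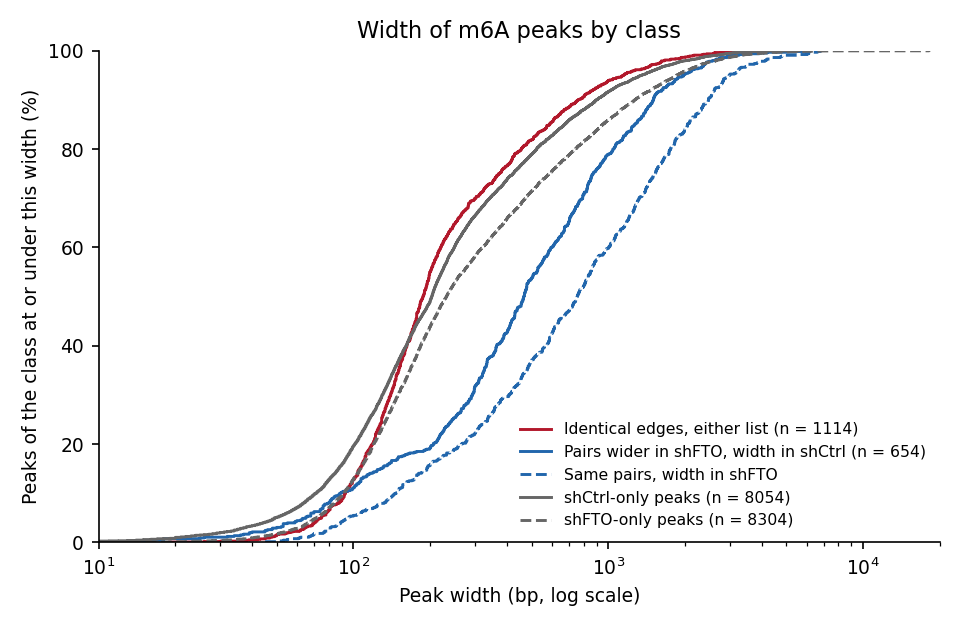
Cumulative share of peaks (vertical axis, %) against peak width (horizontal axis, bp, log scale) for members, for pairs that were wider in shFTO cells with the width in each list, and for peaks of 1 list alone. The curve of the members is steepest between 101 and 200 bp, where 42.3% of them lie, and the pairs wider in shFTO cells lie to its right.

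How often a pair had identical edges depended on its width, taken from the narrower peak of the pair. The share was 87.7% at 101 to 200 bp (471 of 537 pairs, 95% Wilson interval 84.7% to 90.2%) and 67.6% at 51 to 100 bp (125 of 185, 60.5% to 73.9%). It was 40.0% in the 45 pairs of up to 50 bp (27.0% to 54.5%). Above 200 bp it was lower with each class, at 50.4% at 201 to 500 bp (46.4% to 54.4%), 36.1% at 501 to 1000 bp (31.4% to 41.1%) and 25.7% over 1000 bp (20.8% to 31.2%). The wide pairs that were no members were mostly wider in shFTO cells, with 138 wider in shFTO and 59 wider in shCtrl cells over 1000 bp. In the class of 101 to 200 bp these counts were 53 and 13.

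**Figure D2:**
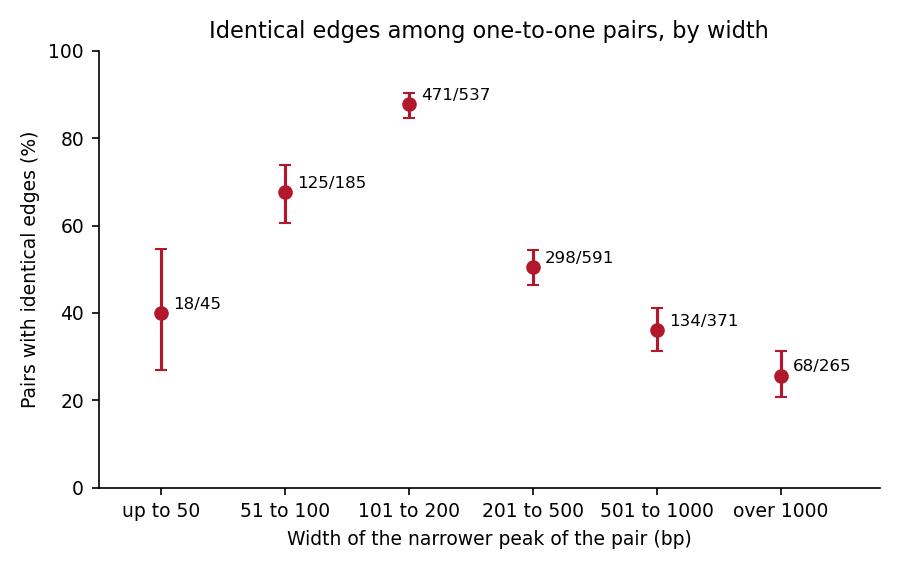
Share of one-to-one pairs with identical edges (vertical axis, %) by the width of the narrower peak of the pair (horizontal axis, bp). Points are shares with the members and all pairs of the class written beside them, and bars are 95% Wilson intervals. The share is highest at 101 to 200 bp (87.7%) and lowest over 1000 bp (25.7%).

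The widths of the members were multiples of 3 more often than the other remainders were seen. A width that divides by 3 was carried by 438 of 1114 members (39.3%, 95% Wilson interval 36.5% to 42.2%), against 327 with a remainder of 1 and 349 with a remainder of 2. Among members of up to 200 bp the share was 41.7% (37.9% to 45.6%), and among those over 200 bp 36.4% (32.3% to 40.7%). The peaks of 1 list alone had shares of 34.6% (33.6% to 35.6%) in shCtrl and 36.75% (35.7% to 37.8%) in shFTO cells. Up to 200 bp these were 35.8% (34.3% to 37.3%) and 39.1% (37.5% to 40.7%). Pairs that were wider in shFTO cells had 30.9% by their shCtrl width (27.5% to 34.5%) and 33.6% by their shFTO width (30.1% to 37.4%), and 31.75% (24.3% to 40.3%) and 38.5% (29.7% to 48.1%) up to 200 bp. At up to 200 bp, the intervals of all of these but the peaks of the shCtrl list alone overlapped that of the members, and nothing particular to the members is read from the share. As background, coding exons of a length that divides by 3 can be skipped without a shift of the reading frame, and such lengths are common among exons. Whether the edges of the members are exon edges was not tested, because no gene annotation of hg19, the build that the submitters' processing notes name, was used here.

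The strength of the members was read from the score that the authors list for each peak, in which a higher value was read, as MACS writes it, as a smaller P value of IP against input. Scores cannot be set against each other between lists, because each list comes from its own IP and input library of unknown depth, so each was turned into a percentile among all peaks of its own list. The scores of the members ran from 50.09 over a median of 306.64 to 3154.83 in the shCtrl list, and from 50.26 over 347.68 to 3233.06 in the shFTO list. In percentiles the median was 66.2 for shCtrl and 61.1 for shFTO peaks. The members were thus spread over the whole range of scores, with more of them above than below the median of either list. Both peaks lay above the median of their list in 603 members and at or below it in 228, and 119 members were in the top 10% of both lists against 5 in the lowest 10% of both. Pairs that were wider in shFTO cells had median percentiles of 62.9 and 55.7, and pairs that were wider in shCtrl cells 72.0 and 61.6, in the shCtrl and the shFTO list respectively.

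Above 200 bp, wider members stood higher in both lists. The median percentile in the shCtrl list was 52.6 for members of up to 50 bp, 57.7 for those of 51 to 100 bp, 59.0 for members of 101 to 200 bp, 67.3 at 201 to 500 bp, 84.35 at 501 to 1000 bp and 93.6 over 1000 bp. In the shFTO list the same classes had 52.2, 51.9, 51.7, 65.5, 79.2 and 92.6, so the 3 classes of up to 200 bp had similar medians there. Across members the Spearman correlation of width with the percentile was 0.40 for shCtrl and 0.39 for shFTO peaks (n = 1114 members, which share their libraries).

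A score of exactly 3100 stood out in both lists. It was carried by 406 shCtrl and 611 shFTO peaks, while only 21 and 28 peaks had a higher value, so it was taken as a ceiling below which scores can be ordered. Among the members 63 had this score in both lists, 4 in the shCtrl list alone and 25 in the shFTO list alone. The 63 ranged from 91 to 2776 bp with a median of 621 bp, and 41 of them came from the 202 members that were wider than 500 bp. The 614 members of up to 200 bp held 9 of them.

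The 10 widest members at the ceiling in both lists were chosen as examples of the strongest regions and are given by position on hg19. The widest lay on the minus strand of chromosome 5 from 141242217 to 141244992 and measured 2776 bp. It was followed by 2438 bp on the minus strand of chromosome 7 from 55538301 to 55540738, and by 2360 bp on the plus strand of chromosome 2 from 235949532 to 235951891. Chromosome 9 held 2 on its plus strand, from 131669436 to 131671600 (2165 bp) and from 134349841 to 134351922 (2082 bp). The next were on the minus strand of chromosome 1 from 27331511 to 27333448 (1938 bp) and of chromosome 17 from 38632080 to 38633981 (1902 bp). Chromosome 19 held 2 on its plus strand, from 756890 to 758726 (1837 bp) and from 47112382 to 47114039 (1658 bp), and the last was on the minus strand of chromosome 11 from 118964564 to 118966177 (1614 bp). At the narrow end, the shortest members with a score of 3100 in both lists lay on chromosome 7 from 99063734 to 99063824 (91 bp, minus strand) and on chromosome 19 from 11548697 to 11548792 (96 bp, plus strand).

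Width alone did not bring a member to the ceiling. The widest member of all measured 4414 bp and lay on the plus strand of chromosome 1 from 14104913 to 14109326, with a score of 2534.71 in shCtrl and 2622.89 in shFTO cells. The next widest, 3693 bp on the plus strand of chromosome 11 from 32953289 to 32956981, had scores of only 532.63 and 325.96, or the percentiles 77.6 and 59.6. The shortest member of all, 19 bp on the plus strand of chromosome 17 from 41331411 to 41331429, had scores of 195.97 and 231.57.

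The members were ranked alike in both lists, but single members moved far. The Spearman correlation between the percentiles was 0.76 over the 1114 members and 0.68 over the 1018 that had a score under 3100 in both lists. It was 0.70 over the 654 pairs that were wider in shFTO cells and 0.73 over the 226 that were wider in shCtrl cells. The members share 1 library pair per list, so these correlations are descriptions. The percentiles lay within 10 points of each other in 534 members. The middle of the differences was slightly below 0, with a median of -2.38 points (shFTO minus shCtrl, quartiles -15.8 and 5.56), and 680 members had the higher percentile in the shCtrl list against 434 in the shFTO list. The 680 include the 63 with a score of 3100 in both lists, whose listed scores are equal and whose difference of -1.01 points comes from the larger number of shFTO peaks at that score. Without them 617 members had the higher percentile in the shCtrl list, and the median difference was -3.44 points. Median differences were -3.73 points in the pairs wider in shFTO cells and -4.39 points in those wider in shCtrl cells. The same side was thus seen in all 3 classes. However, these percentiles depend on all peaks of a list, most of which were found in 1 list alone. Ranked among the one-to-one pairs alone, the median percentiles of the members were 50.5 for shCtrl and 51.2 for shFTO peaks. The members are 55.9% of these pairs, and the other 2 classes leaned to the same side. Ranking among these pairs alone therefore could not show a lean shared by all classes, and it does not decide the question. Because the percentiles among all peaks depend on the peaks of 1 list alone, no loss of rank after knockdown is read from the lean.

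A percentile that was over 25 points higher in the shFTO list was found in 80 members, or 7.18% (95% Wilson interval 5.81% to 8.85%), beside 7.87% of all one-to-one pairs. A percentile that was over 25 points higher in the shCtrl list was found in 170 members, or 15.3% (13.3% to 17.5%), beside 15.6% of all one-to-one pairs. Both shares were near those of all pairs. All pairs include the members, so the other classes are given as well. Pairs wider in shFTO cells had 9.17% (7.19% to 11.6%) higher in the shFTO list and 15.6% (13.0% to 18.6%) higher in the shCtrl list. Pairs wider in shCtrl cells had 7.52% (4.75% to 11.7%) and 17.3% (12.9% to 22.7%). The intervals of the members overlapped those of both classes. Members whose edges were the same to the base thus still changed their rank, at shares whose intervals overlapped those of pairs with other edges.

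The 5 members that stood highest in shFTO relative to shCtrl cells had percentiles of 0.208 to 6.65 in the shCtrl list. The largest difference, 70.6 points, was on the plus strand of chromosome 7 from 91623935 to 91624090, a region of 156 bp with a score of 59.24 in shCtrl and 764.69 in shFTO cells. On the minus strand of chromosome 11, a region of 65 bp from 138047 to 138111 had scores of 57.92 and 593.42. On the minus strand of chromosome 6, a region of 143 bp from 2953278 to 2953420 had scores of 51.93 and 452.61. These 3 regions thus lay just above the lower limit of scores in control cells and at the percentiles 77.2, 72.8 and 67.3 of the knockdown list. The region on the plus strand of chromosome 12 from 64803559 to 64803875 (317 bp) had scores of 50.52 and 402.38, and the one on the minus strand of chromosome 2 from 197027986 to 197028151 (166 bp) had 58.25 and 497.0.

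The opposite order was most marked on the minus strand of chromosome 9 from 139404185 to 139404413. This region of 229 bp had a score of 1150.85 in shCtrl and 52.59 in shFTO cells, or the percentiles 88.2 and 1.67. The region on the plus strand of chromosome 5 from 74892047 to 74893003 (957 bp) had scores of 995.34 and 81.25. Its percentiles were 86.4 and 18.3. Both thus ranked high in control cells and low in knockdown cells. On the plus strand of chromosome 20 a region of 205 bp from 36500327 to 36500531 had scores of 402.52 and 58.06. The 2 others were on the plus strand of chromosome 17 from 65971888 to 65972074 (187 bp, 663.57 and 73.24) and on the minus strand of chromosome 14 from 93424546 to 93424711 (166 bp, 348.39 and 57.86). With 1 IP library per condition it cannot be told apart whether such a difference comes from the cells or from the libraries.

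**Figure D3:**
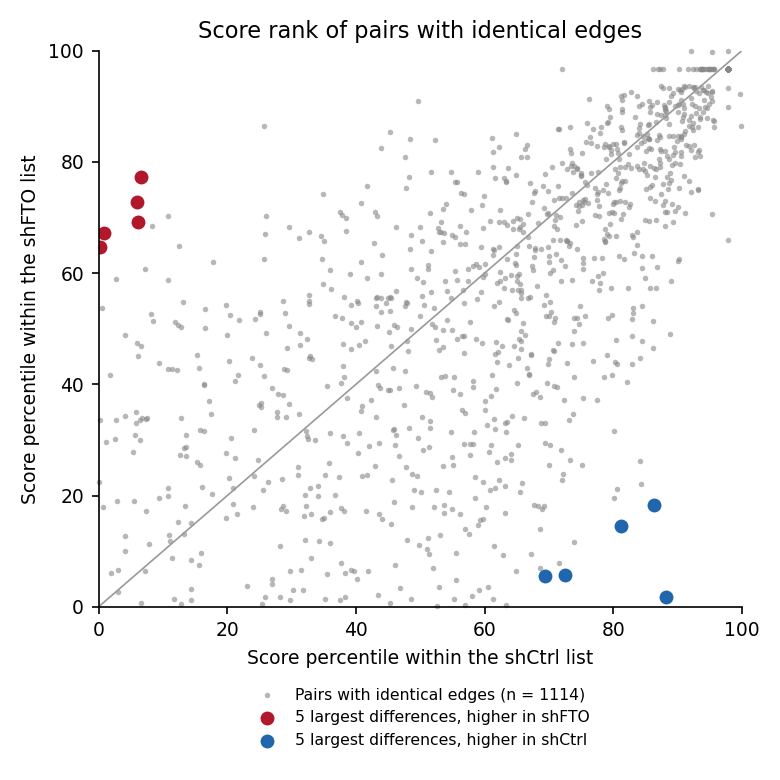
Score percentile of each member within the shCtrl list (horizontal axis) and within the shFTO list (vertical axis), with the diagonal of equal rank and the 5 members of the largest difference in each direction in colour. The points crowd at the upper right, and the Spearman correlation is 0.76 over 1114 members.

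The members were listed on all 24 chromosomes, with 2 of them on chromosome Y. The paper's cell line report gives amelogenin as X, X for its RWPE1 sample, against X, Y in the reference profile. Whether the cells carry chromosome Y was not tested, so the listed Y positions are not read as peaks of that chromosome. Their share of the one-to-one pairs ran from 39.4% on chromosome X (26 of 66, 95% Wilson interval 28.5% to 51.4%) to 74.2% on chromosome 13 (23 of 31, 56.75% to 86.3%). The interval left out the share over all pairs on 3 of the 24 chromosomes, namely these 2 and chromosome 2 with 65.4% (87 of 133, 57.0% to 73.0%). No test between chromosomes was made. Set against all listed peaks, and with chromosome Y (2 members) left aside, the members were most frequent on chromosome 21, with 17.6% of its shCtrl and 16.1% of its shFTO peaks, and least frequent on chromosome 18 with 5.13% and 6.35%.

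**Figure D4:**
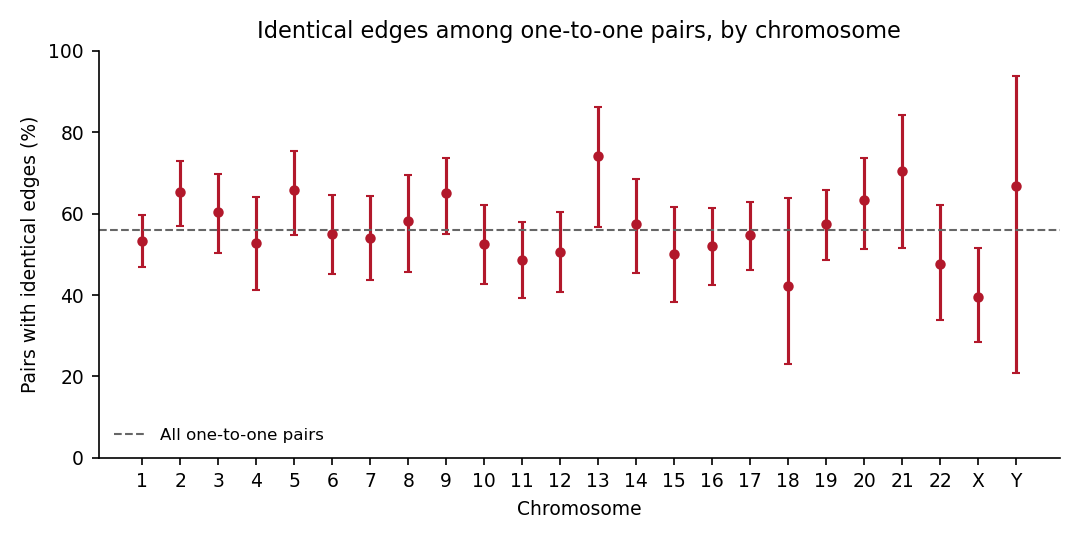
Share of one-to-one pairs with identical edges (vertical axis, %) on each chromosome (horizontal axis), with 95% Wilson intervals and the share over all pairs as a dashed line (55.9%). Chromosomes 2 and 13 lie above the line and chromosome X below it by more than their intervals.

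Most members stood alone. When members on 1 strand were joined into runs wherever the gap between neighbours was under 20000 bp, a limit chosen after the values were seen, 941 of 1114 had no other member in their run. There were 68 runs of 2 members, 11 of 3 and 1 of 4. Peaks of 1 list alone were also found close by. Within 5000 bp on the same strand, 20.9% of members had a peak of the shCtrl list alone (95% Wilson interval 18.6% to 23.4%) and 24.96% had one of the shFTO list alone (22.5% to 27.6%), while 61.4% (58.5% to 64.2%) had neither. In the pairs that were wider in shFTO cells 70.5% had neither (66.9% to 73.9%), and in those that were wider in shCtrl cells 74.8% (68.7% to 80.0%). Unchanged edges at a member thus did not mean that its neighbourhood was listed alike in both conditions.

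The run of 4 was on the plus strand of chromosome 2 and spanned 24176 bp from 54849437 to 54873612. Its members, in the order of the strand, were 188, 159, 203 and 282 bp wide. Their scores were higher from each member to the next along the strand in both lists. They were 122.58, 458.05, 2762.94 and 3100 in shCtrl cells and 235.19, 798.79, 2700.94 and 3100 in shFTO cells. Between them lay 2 peaks of the shCtrl list alone and 2 of the shFTO list alone. A run of 3 on the plus strand of chromosome 19 from 39208567 to 39216543 held no other peak of its strand. Its members of 148, 183 and 180 bp had scores of 1141.42, 3100 and 3100 in shCtrl and 1676.71, 3100 and 3100 in shFTO cells, and its weakest member (percentiles 88.1 and 88.5) ranked above the weakest member of each of the other 11 runs in both lists.

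In 5 of the 12 runs of 3 or more, all members moved to 1 side. Over all members, 38.96% had the higher percentile in the shFTO list and the rest had it in the shCtrl list. No expected number of such runs was worked out, so nothing about runs as a group is read from the count. On the minus strand of chromosome 13 from 110804681 to 110831768 the 3 members had lower percentiles in shFTO cells, with differences of -29.8, -38.65 and -49.3 points. Their scores, in the order of the strand, were 121.4, 170.31 and 394.44 in shCtrl cells and 61.85, 67.11 and 92.7 in shFTO cells. On the minus strand of chromosome 10 from 105816733 to 105845760 the scores were 141.19, 302.26 and 2098.98 in shCtrl cells and 130.01, 91.52 and 1033.4 in shFTO cells. The percentile differences in this run were -9.13, -43.6 and -11.3 points in the same order. By percentile, both runs were thus lower in rank in knockdown cells at every member. The run on the minus strand of chromosome 2 from 101643845 to 101654170 went the other way, with differences of 17.4, 15.2 and 9.09 points. Its scores were 213.51, 186.38 and 64.1 in shCtrl cells and 642.82, 469.55 and 85.45 in shFTO cells. The remaining 2 runs that moved to 1 side were lower in shFTO cells, and lay on chromosome 16 from 4909866 to 4922935 (plus strand) and on chromosome 2 from 127821509 to 127834282 (minus strand). Over all 93 neighbours on 1 strand that were under 20000 bp apart, both percentiles were higher in shFTO cells in 18, both were higher in shCtrl cells in 37, and 1 of each was found in 38. The Spearman correlation between the differences of neighbours was 0.09 (n = 93, with a member counted in up to 2 of them).

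**Figure D5:**
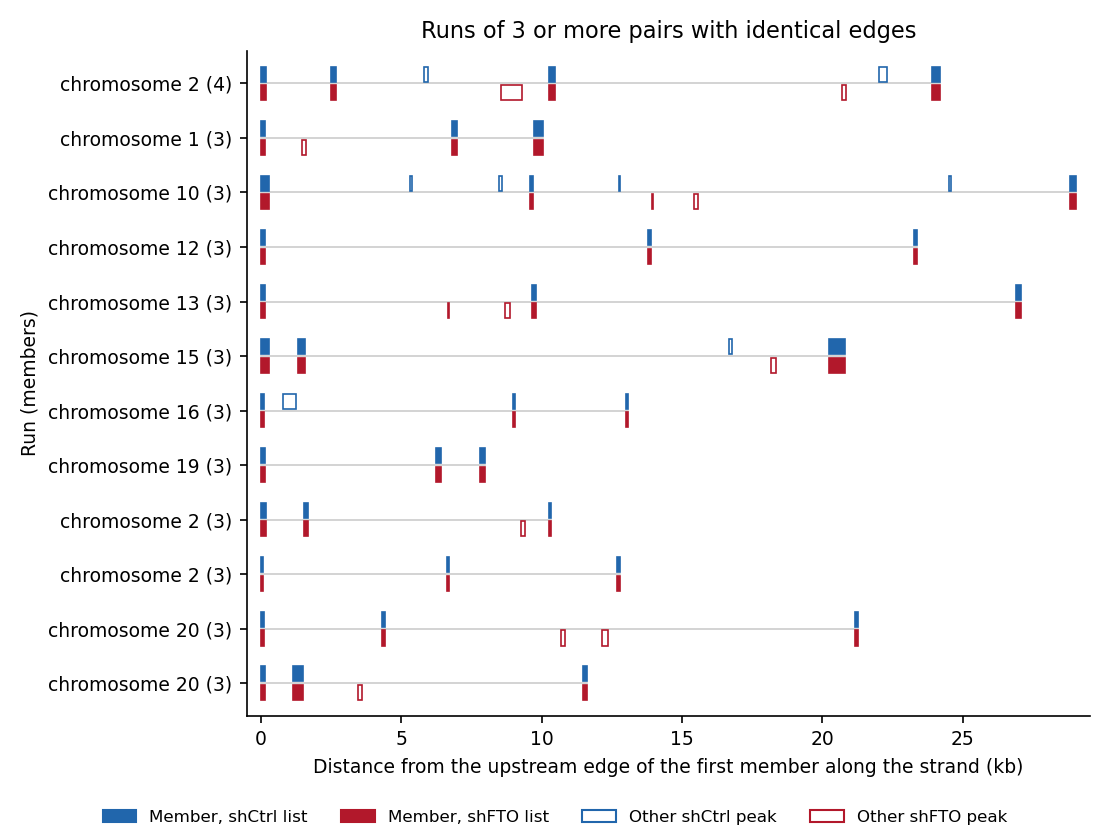
Map of the 12 runs of 3 or more members, each row a run and named by its chromosome with the number of members. The horizontal axis is the distance (kb) from the upstream edge of the first member along the strand; filled boxes are members as listed for shCtrl (blue, upper) and for shFTO cells (red, lower), and open boxes are other listed peaks of that strand. The run of 4 on chromosome 2 spans 24176 bp and also holds 2 peaks of each list alone.

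The names of the peaks carry a running number along the chromosomes. This number was read as a count of called peaks between neighbouring members, also of those not listed. Whether the caller numbers every called peak in order was not checked. The highest number was 173974 among the 10087 shCtrl peaks and 161598 among the 10323 shFTO peaks, so by this reading most called peaks were not listed. A peak of 1 list alone may thus have been called but not listed in the other condition. Shares and percentiles given here describe listed peaks only. For members under 5000 bp apart on either strand, the step in this number was the same in both lists in 25 of 33 cases (75.8%, 95% Wilson interval 59.0% to 87.2%). In 16 of these 25 the numbers were consecutive, so by this reading no called peak lay between the members in either condition. With these 16 left out, the step was the same in 9 of 17 cases (52.9%). From 5000 to under 20000 bp the step was the same in 24 of 65 cases (36.9%, 26.2% to 49.1%), and from 20000 to under 100000 bp in 10 of 101 (9.90%, 5.47% to 17.3%). Median steps were 1 in shCtrl and 2 in shFTO cells in the nearest class, 4 in both in the next, and 16 and 15 in the last. Small steps are more easily equal than large ones, so the fall with distance is not read as a result about the conditions. In the runs of 3 or more members, 14 of 25 neighbours had the same step. The members of the run of 4 on chromosome 2, all with equal steps, carried the numbers 87380, 87382, 87387 and 87392 in shCtrl and 82182, 82184, 82189 and 82194 in shFTO cells. Those of the run on chromosome 20 from 30359363 to 30380633, with unequal steps, carried 99364, 99365 and 99372 in shCtrl and 93163, 93165 and 93170 in shFTO cells.

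Where the step was the same and over 1, the called peaks between 2 members could, by the same reading, be counted off in both conditions. There were 32 such neighbours under 20000 bp apart, with 91 numbers between them. Of these numbers 14 belonged to a listed peak of shCtrl cells alone, 11 to a listed peak of shFTO cells alone, 0 to both and 66 to neither. An equal place in the count does not show that the numbers of the 2 lists stand for the same region. These neighbours were selected on their equal step, so the equal number of called peaks between them is no finding. What selected the listed peaks is not given in the sources used here.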

How the data were processed

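MeRIP-seq gave 1 IP and 1 input library from shCtrl and from shFTO RWPE1 cells, and the authors deposited 1 peak list per condition. The submitters' processing notes name cutadapt 1.9.3, HISAT2 and the build hg19. The peak names have the form that MACS writes. The caller's settings and the selection of the listed peaks are not given in the sources used here. The score deposited by the authors was read as minus 10 times the log10 of a P value, as MACS writes it, and used only as a rank within its list.

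Peaks were paired with bedtools 2.31.1 and summarised with pandas 2.3.3 in Python 3.11.15. Shares have 95% Wilson intervals (SciPy 1.17.1). No test between conditions was made, as there is 1 library pair each. Pairing was tested on simulated data. Percentiles are average ranks among all peaks of a list. Positions are 1-based.

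The members, lists of items and limits were chosen with earlier results of these data known. Named members are the 10 widest at 3100 in both lists and the 5 largest percentile differences in each direction; the shortest and widest members and the runs were added after their values were seen. No genome or annotation of the build of the lists was used here, so no gene, exon, motif or sequence is given, and the FTO knockdown was not checked.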

Additional observations from a re-analysis of the deposited data

How the results depend on the processing

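Requiring the same strand, a 50% overlap of both peaks, or including peaks with several partners each left 1114 members. Allowing edges within 5 bp gave 1180 and within 25 bp 1330 pairs, and peaks under 3100 gave 1018. Leaving out the peaks under the median score in each list gave 603, fewer by construction. Alternatives chosen after seeing the data gave 1131 (edges within 1 bp) and 1112 (without chromosome Y). With members under 3100 in both lists the median percentiles were 63.5 (shCtrl) and 57.15 (shFTO), the rank correlation 0.68 and the median width 178.5 bp. Ranked among the one-to-one pairs alone, the median percentiles were 50.5 and 51.2, near the middle by construction because most of these pairs are members. Ranking 3100 above all other scores, chosen after seeing the data, left both medians at 66.2 and 61.1. The share of widths that divide by 3 was between 36.4% (members over 200 bp) and 41.7% (up to 200 bp) in alternatives that were all chosen after seeing the data.

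No paired analysis was possible because shCtrl and shFTO cells have 1 IP and 1 input library each, which also allowed no fit without a replicate. The alternatives set for exon edges, motifs, transcript regions and genes were not run for want of a genome of this build here. Depth is unknown, so a low score was not separated from few reads.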
